A study of Mus musculus with 14 samples.

Results

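S phase genes are the genes whose transcripts rise when a cell copies its DNA, and they are described here in every cell type of the mouse retina and brain snRNAseq data, with weight on oligodendrocyte precursor cells (OPCs), immune nuclei and types other than endothelial cells (ECs). The members are 38 genes given by name that are known for their part in S phase. All 38 were among the 28316 genes of the retina matrix and the 26528 genes of the brain matrix. Their UMIs (unique molecular identifiers, which count each captured transcript once) were summed over the nuclei of each of the authors' cell type labels in each library and divided by all UMIs of those nuclei, and the scaled share is given as CPM.

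The study asked what follows in the retina and brain when ECs lose the TGF-beta receptor *Tgfbr1* early in postnatal life. CKO mice carried *Cdh5CreER* (VEcadCreER in the labels) and *Tgfbr1 CKO/-*, that is a floxed and a deleted allele. Treatment with 4-hydroxytamoxifen (4HT) from postnatal day 3 to 5 is listed for CKO and control libraries alike. The labels call the controls wild type. The methods give an age of postnatal day 14, whereas the labels say young adult. Whole retinas gave 1 control and 11 CKO libraries, and brain fragments enriched for vessels gave 1 control and 1 CKO library, each from 2 brains. *Cdh5* drives the recombinase in ECs, so the deletion was aimed at ECs, and the other cell types described here were not its target. How many mice went into a retina library is not stated, so p-values across libraries rest on the spread between libraries and not on a known number of animals.

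During S phase, helicase complexes of MCM proteins that were loaded on DNA in G1 are activated, primase and polymerases copy both strands around the PCNA clamp, deoxynucleotides and histones are made in step with the DNA, and checkpoint proteins watch the forks. Most of these genes are switched on together by E2F transcription factors. OPCs divide throughout early postnatal life, microglia and infiltrating leukocytes can divide in inflamed tissue, and retinal and cortical neurons have left the cell cycle for good.

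The retina libraries held 77676 nuclei with 11 labels, and the brain libraries 31324 nuclei with 21 labels. In the retina, 11513 nuclei and 30989702 UMIs came from the control library, whose median depth was 1595. Each CKO library of the retina held between 104 and 18862 nuclei and between 90449 and 55803724 UMIs, at median depths from 613 to 4041. The brain libraries held 49798325 UMIs in 16649 control nuclei and 31033373 UMIs in 14675 CKO nuclei, with medians of 1541 and 1395. CKO retina replicate 4 stood apart from the others. It held 104 nuclei, of which 65 were labeled immune, and its median depth of 613 was the lowest, so the main results that rest on it are given with and without it. It is also, with replicate 5, one of the libraries in which the authors removed clusters by hand. Across libraries, 10 nucleus barcodes in the retina and 2 in the brain occurred more than once, and libraries were told apart by their suffix. All intervals are at 95% and reflect the error of counting, not the spread between animals.

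The whole list was far from silent in neurons. In the 8 retinal neuron labels, none of which divides, the list summed to between 351 CPM in control horizontal cells (HC) and 607 CPM in CKO cones. The median over the 8 labels was 474 CPM in the control and 511 CPM in the CKO retina. In the 10 brain neuron labels it ran from 106 to 354 CPM for the control and from 130 to 347 CPM for the CKO library, with medians of 261 and 227 CPM. A level of the summed list therefore says little about DNA replication until it is set beside these neurons.

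A group of 5 members gave between 53.9% (HC) and 67.4% (rods) of the list UMIs in the 8 retinal neuron labels, with the genotypes pooled as in the values of this and the next paragraph. *Pola1*, the catalytic subunit of the polymerase that starts each new strand, was at 224 CPM in rods and was not below 88.6 CPM in any of the 8 retinal neuron labels. *Nasp*, a histone chaperone, reached 81.7 CPM in glycinergic amacrine cells (Gly_AC), and *Pold3*, an accessory subunit of the polymerase of the lagging strand, reached 71.6 CPM in cones. *Wdr76*, which binds damaged DNA, and *Blm*, a helicase that resolves recombination intermediates, peaked at 50.3 CPM in cones and 43.8 CPM in rods. Per kb of gene, the level of *Pola1* in retinal neurons was 0.45 CPM, against 1.70 for *Nasp*, 1.70 for *Pcna*, the sliding clamp, and 1.34 for *Pold3*.

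Of the other members, 16 peaked between 5.01 and 43.2 CPM in the 8 retinal neuron labels. The last 17 stayed under 5 CPM in each of these labels and are called neuron-low below, although in the control alone *Gins2* was at 6.21 CPM in RBC (rod bipolar cells) on 13 UMIs and *Gmnn* at 5.53 CPM in cones on 6 UMIs. The limit was set after the values had been seen, so the split is a description. It took in 6 of 8 genes of origin licensing and the helicase (*Mcm2*, *Mcm5*, *Mcm6*, *Cdc6*, *Gins2*, *Gmnn*), 2 of 7 genes of polymerases, clamp and loaders (*Dscc1*, *Fen1*), and 1 of 3 genes of nucleotide supply (*Rrm2*). It also held 3 of 9 genes of chromatin and histone supply (*Chaf1b*, *Uhrf1*, *Cdca7*), 3 of 8 of checkpoint and repair (*Clspn*, *Exo1*, *Rad51ap1*) and 2 of 3 of cycle control (*E2f8*, *Dtl*). Just inside the limit, *Gins2*, part of the helicase, reached 3.78 CPM, and just outside it *Mcm4*, *Cdc45*, *Ung* and *Atad2* reached 5.01, 5.36, 5.56 and 5.71 CPM. The lowest of all was *E2f8*, a repressor induced late in the E2F program, at no more than 0.190 CPM. The limit is on CPM, not on length. Per kb, the neuron-low members lay between 0.00765 and 0.338 CPM in retinal neurons, and *Ung*, *Cdc45* and *Atad2*, outside the limit, lay within that range at 0.0796, 0.0920 and 0.110. The neuron-low members summed to between 13.4 and 25.1 CPM over the retinal neuron labels of the control, and to between 15.7 and 23.2 CPM in the CKO retina.

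Retinal immune nuclei carried more of the list than most other retinal types. In the control library, 29 immune nuclei with a median of 2892 UMIs gave 63 UMIs of the list, or 550.4 CPM (423 to 704, exact Poisson). In the 11 CKO libraries the level was lowest at 563 CPM in replicate 2, had a median of 735 CPM, and was highest at 4020 CPM (3444 to 4666) in replicate 4. Replicates 1, 3, 5 and 6 were at 835, 625, 784 and 735 CPM, and replicates 7 to 11 at 693, 737, 670.4, 669 and 785 CPM. All 11 CKO libraries lay above the control library, but the 95% interval of the control reached above 5 of them. Without replicate 4 the CKO libraries averaged 710 ± 81.9 CPM (SD, n = 10), with a median of 714 and a maximum of 835. Within batch 1 of the authors' metadata, the batch that holds the control and CKO replicates 1 to 3, the CKO level was 674 ± 142 CPM (SD, n = 3), and batches 2 and 3 hold CKO libraries only.

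**Figure D1:**
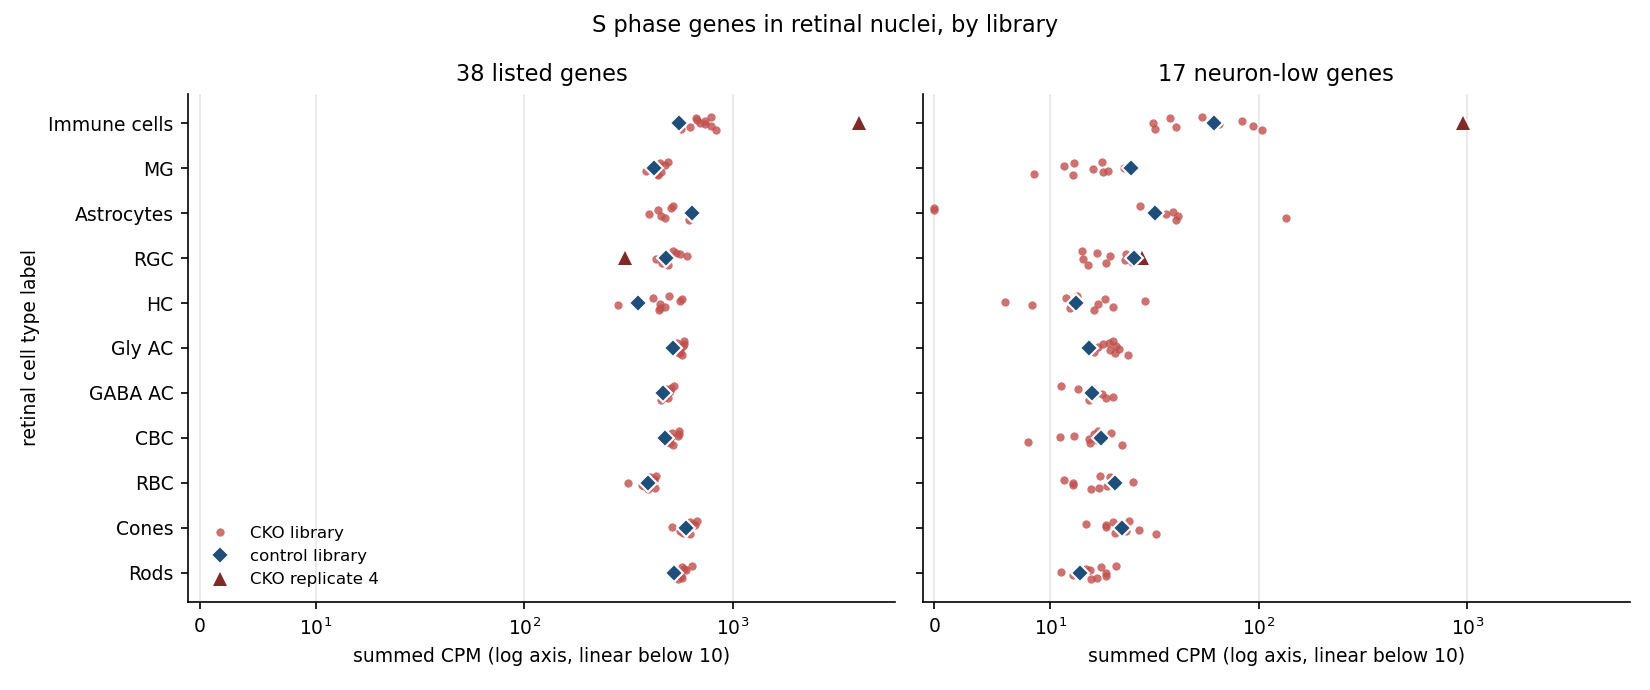
Summed CPM of the 38 listed genes (left) and of the 17 neuron-low genes (right) in each retinal cell type label, on an axis that is logarithmic above 10; each point is 1 library with at least 10 nuclei of the label, diamonds are the control and triangles CKO replicate 4. In immune cells replicate 4 sits at 4020 CPM on the left and 953 CPM on the right, and the other 10 CKO libraries lie between 563 and 835 CPM and between 31.1 and 104 CPM.

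The neuron-low members, chosen for low values in neurons, were compared between immune libraries. In the control immune nuclei they had 7 UMIs, or 61.2 CPM (24.6 to 126). In the CKO libraries they ranged from 31.1 CPM in replicate 7 to 953 CPM in replicate 4, with a median of 61.6 CPM, and 6 of 11 libraries were above the control. Without replicate 4 the median was 57.4 CPM, the maximum 104 CPM, and 5 of 10 libraries were above the control. The 2 genotypes thus overlapped for these members. Within libraries, immune nuclei held them above rods in 11 of 11 libraries with both types, as a description since the choice of these members favors it, with a median ratio of 3.46 (1.91 to 7.28 over libraries), and exceeded Müller glia (MG) in 11 of 11, with a median ratio of 3.00, but retinal astrocytes in 7 of 9, with a median of 1.91 and a minimum of 0.237. For the whole list, immune nuclei exceeded rods in 10 of 11 libraries with a median ratio of 1.23, cones in 9 of 11 with 1.12, and MG in 11 of 11 with 1.57. Against the other retinal labels the median ratio of the whole list lay between 1.29 for Gly_AC and 1.69 for RBC.

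Gene by gene, 10 of 30 members with enough counts were at least 2 times higher in immune nuclei than in the 8 neuron labels, in all libraries but CKO replicate 4, where 20.0% of 15294 genes passed that limit. They were *Atad2*, *Cdca7*, *Clspn*, *Dtl*, *Exo1*, *Fen1*, *Gmnn*, *Mcm5*, *Mcm6* and *Uhrf1*, of which *Atad2* alone is not neuron-low. Genes were tested at a mean of at least 2 CPM over the 2 groups, so neuron-low members entered mainly through their immune level. With the filter on the neuron level alone, which leaves in 1 neuron-low member, 1 of 21 members passed, beside 12.8% of genes, and over genes with any UMI 16 of 38, beside 19.4%. A general excess of the members over neurons is therefore not shown. The median log2 ratio, with 1 CPM added to each level, was 0.73 over the members and 0.17 over all genes at that mean. The 8 members left out for low counts included *Rrm2*, the small subunit of ribonucleotide reductase, whose 5 immune UMIs all came from replicate 4. With replicate 4 included, 13 of 32 members passed the limit, beside 20.5% of all genes. None of the members tested at that mean was at most 0.5 times as high in immune nuclei, where 9.09% of genes were without replicate 4 and 9.21% with it. Of 39 other genes of the replication machinery, none of them members, 16 of the 36 with enough counts were at least 2 times higher in immune nuclei without replicate 4, and 0 of the 18 fitted between genotypes passed edgeR.

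By role, CKO immune nuclei held 43.9 CPM of licensing and helicase genes, against 8.74 CPM in control immune nuclei, the latter from 1 UMI. For polymerases, clamp and loaders the levels were 308 and 218 CPM, for nucleotide supply 30.2 and 26.2, and for chromatin and histone supply 248 and 218. Checkpoint and repair genes were at 153 and 69.9 CPM and cycle control genes at 18.8 and 8.74 CPM, where the control value again is 1 UMI. Without replicate 4 the CKO values were 40.7, 292, 25.5, 232, 142 and 14.4 CPM in that order of roles. Nucleotide supply was then close to the control value, which rests on 2 UMIs of *Tyms*, 1 of *Rrm1* and 0 of *Rrm2*, so its direction was not resolved.

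Among polymerases and loaders, *Pola1* had 437 immune UMIs, the most of any member. It was at 96.1 CPM in the control on 11 UMIs, and between 101 and 767 CPM, with a median of 166, in the CKO libraries. All 11 CKO libraries were above the control, with a maximum of 225 CPM once replicate 4 was left out. *Pola1* is X-linked, and *Xist* was at 6779 CPM in the control and between 5577 and 6823 CPM in CKO replicates 1, 2, 4 and 7 but at no more than 12.9 CPM in the other 7, so the CKO libraries are mixed in sex. Over all nuclei of a library *Pola1* was also lowest in the control, at 117 CPM with kit version 4. It was between 126.9 and 146.7 CPM in 6 CKO libraries of that kit, at 409 CPM in replicate 4, and between 161.8 and 187 CPM in the 4 of kit version 5, so the difference is not one of immune nuclei alone. *Pold3* was at 43.7 CPM in the control on 5 UMIs. In the CKO libraries it was between 16.0 and 256 CPM, with a median of 64.2, and 10 of 11 were above the control. Without replicate 4 the maximum of *Pold3* was 109 CPM. *Rfc2*, a subunit of the complex that loads the clamp, went the other way, with 61.2 CPM in the control on 7 UMIs. In the CKO libraries it was between 0 and 56.9 CPM, with a median of 36.8, and 0 of 11 were above the control. The value of 0 was that of replicate 4, without which the minimum was 24.0 CPM. The 11 libraries share a single control value. Fitted log2 differences were -0.66 ± 0.78 SE for *Rfc2* and 0.65 ± 0.90 SE for *Pold3*.

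Among chromatin genes, *Atad2*, a bromodomain ATPase bound to newly made chromatin, had 0 UMIs in the control, where the floor of 3 counts was 26.2 CPM. In the CKO libraries it ran from 8.01 to 372 CPM, or to 78.5 CPM without replicate 4. Its CKO median was 31.9 CPM, and all 11 libraries had UMIs. Pooled over CKO libraries it was at least 1.96-fold higher than the floor of the control. *Nasp* was at 69.9 CPM in the control on 8 UMIs. In the CKO libraries it was between 10.6 and 75.4 CPM, with a median of 53.1, and 1 of 11 exceeded the control. *Casp8ap2*, which is needed for histone gene transcription, was at 61.2 CPM in the control on 7 UMIs. It had a CKO median of 47.4 CPM (25.2 to 186), with 3 of 11 above the control. Its maximum without replicate 4 was 88.1 CPM.

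Among repair genes, *Blm* was at 17.5 CPM in the control on 2 UMIs, and between 28.3 and 186 CPM with a median of 38.9 in the CKO libraries. Its maximum without replicate 4 was 77.65 CPM. *Wdr76*, also on 2 control UMIs, was at 17.5 CPM in the control and between 15.4 and 163 CPM with a median of 42.5 in the CKO libraries. Without replicate 4 the maximum of *Wdr76* was 65.4 CPM. All 11 CKO libraries were above the control for *Blm* and 10 of 11 for *Wdr76*. Replicate 4 gave the highest value for 29 of the 38 members and had 0 UMIs for 8. The other 30 members, outside these 8 of most UMIs, had between 5 and 93 immune UMIs over all libraries, and 18 of the 38 members had 0 UMIs in the 29 control nuclei.

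None of the 18 members that could be fitted in immune nuclei passed the edgeR test between genotypes (adjusted p under 0.05 over 10225 genes, of which 0.0% passed). At an unadjusted p under 0.05, 0 members and 394 genes passed by edgeR, and 1 member, *Atad2*, and 339 genes by DESeq2, where 0 members passed after adjustment. The median fitted log2 difference, CKO over control, was 0.82 over the 18 members and 0.07 over all genes, and 13 of 18 were positive. The control had 0 UMIs of *Atad2* and *Mcm6*. With *Atad2* at its lower bound and *Mcm6*, which was under the floor, left out, the median was 0.75 over 17 members. Without CKO replicates 4 and 5 the median over the 12 members fitted was 0.59, and within batch 1 over 6 members it was 0.06. *Atad2* had the largest fitted value by far (6.69 ± 3.21 SE, edgeR p = 0.0505), which depends on the prior count because of its 0 control UMIs, and *Pola1* had 0.92 ± 0.81 SE. The control library counts as 1 sample whose variation is taken to be like that of the CKO libraries. An exact permutation test of 1 against 11 libraries cannot fall under 0.0833.

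Immune nuclei with mitotic transcripts held the list at a higher level than the others. A list of 16 mitotic genes, among them *Mki67* and *Top2a* and none of the members, was used to mark nuclei with at least 2 mitotic UMIs. There were 71 such nuclei of 691 (10.3%) in the CKO libraries and 0 of 29 in the control, which allows a share of up to 11.9% (exact binomial). Per CKO library the share ran from 2.63% to 40.0% in replicate 4, with a median of 6.32%, and without replicate 4 to 20.0% with a mean of 7.87% ± 5.06 (SD, n = 10). In CKO nuclei with mitotic UMIs the list was at 1677 CPM and in the other immune nuclei at 682 CPM. The neuron-low members were at 330 and 56.6 CPM. Without replicate 4 these values were 1438 and 657 CPM for the list, and 267 and 49.6 CPM for the neuron-low members. Immune nuclei outside the mitotic set therefore held neuron-low members at about the level of the control immune nuclei (61.2 CPM). All 16 mitotic genes had UMIs in CKO immune nuclei, 119 of them of *Top2a*, and 3 of 16 had UMIs in the control.

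Immune nuclei were also divided by markers, according to whether UMIs of 8 microglial genes or of other myeloid, lymphoid and dendritic genes were more numerous. The 229 CKO nuclei with a microglial majority had the list at 877 CPM (820 to 937), and 27 control nuclei had it at 569 CPM (430 to 739). The 315 CKO nuclei with a majority of other immune markers had it at 753 CPM, and the 101 nuclei with UMIs of neither at 757 CPM. Without replicate 4 these 3 CKO classes were at 825, 718 and 596 CPM. The 46 CKO nuclei with equal numbers of both kinds were at 748 CPM, or 678 CPM without replicate 4. In the control, 2 nuclei had a majority of other immune markers and held the list at 437 CPM. The list was thus spread over microglial and other immune nuclei, and the highest pooled level was in the microglial class.

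At equal depth the share of immune nuclei with S phase transcripts was low. After each nucleus was thinned to 500 UMIs, at least 2 different members were found in 3.57% of 28 control immune nuclei (0.0904 to 18.3, exact binomial) and in 8.61% of 604 CKO immune nuclei (6.50 to 11.1), or 6.81% (4.86 to 9.23) without replicate 4. Unthinned, the shares were 37.9% and 44.4%. Rods, which do not replicate DNA, gave 2.57% in the control and 2.26% in the CKO retina at 500 UMIs, and 12.9% and 16.5% unthinned, at median depths of 961 and 1104 UMIs. The other retinal neuron labels lay between 0.442% and 3.50%. At least 1 neuron-low member was found in 3.57% of control and 6.46% of CKO immune nuclei, against 0.694% and 0.719% of rods. This is a description, since these members were chosen for low values in neurons, rods among them. For at least 2 members, the control interval contains the rod value, so an excess over background was not detectable in 28 control nuclei. The interval of the 604 pooled CKO nuclei lay above the rod value, as it did without replicate 4. Pooled nuclei are not independent samples, and the 2 intervals differ in the number of nuclei, so they do not compare the genotypes.

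The immune label carried its markers together with transcripts of rods. All 6 immune markers had UMIs in both genotypes, summing to 1431 CPM in CKO and 1075 CPM in control immune nuclei, with *Ptprc* (CD45) highest at 564 and 306 CPM. In rods the same 6 markers summed to 14.5 and 11.4 CPM. The 8 microglial markers summed to 430 CPM in CKO, led by *P2ry12* at 201 CPM, and to 944 CPM in control nuclei, led by *P2ry12* at 393 CPM with *Tmem119* at 0. Other myeloid markers summed to 489 CPM with 11 of 11 detected in CKO nuclei, and to 17.5 CPM with 2 of 11 in the control. Lymphoid markers were at 288 and 175 CPM and dendritic markers at 45.9 and 0 CPM. Rod markers, led by *Sag*, summed to 4976 CPM in CKO and 5329 CPM in control immune nuclei, below the 14340 and 15410 CPM of rods themselves. Their part in the level of the members that neurons share, such as *Pola1*, was not tested. Rods held the neuron-low members at 15.7 CPM in the CKO and 13.8 CPM in the control retina, below each of the 12 immune libraries. That difference is a description, since these members were chosen for low values in neurons, rods among them.

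The other retinal labels were compared in the same way. In rods the list was at 521 CPM in the control and between 514 and 637 CPM in 10 CKO libraries (563 ± 38.2, SD), 8 of them above the control. In MG it was at 418 CPM in the control and between 384 and 487 CPM in 10 CKO libraries (443 ± 27.4, SD), 9 of them above. The neuron-low members went the other way in MG, at 24.5 CPM in the control and 16.4 ± 4.97 CPM (SD, n = 10) in the CKO libraries, of which 1 exceeded the control. Retinal astrocytes were at 640 CPM on 20 UMIs in the control and between 397 and 624 CPM in 8 CKO libraries, 0 of them above the control. Cone bipolar cells (CBC) and Gly_AC were above the control in 10 of 10 libraries, at 514 ± 27.1 against 472 CPM and at 561 ± 18.1 against 519 CPM (SD, n = 10). In Gly_AC the neuron-low members were also above the control in 10 of 10 libraries, at 19.6 ± 2.18 against 15.3 CPM. HC were above it in 9 of 10, GABAergic amacrine cells (GABA_AC) and RBC in 7 of 10, retinal ganglion cells (RGC) in 7 of 11 and cones in 5 of 10. Pooled over CKO libraries, HC were at 457 CPM, against 351 CPM in the control.

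No member passed the edgeR test in any of the 11 retinal labels. Between 4 members in astrocytes and 33 in rods could be fitted. Of all genes fitted, 0.00856% passed in cones, 0.00581% in GABA_AC, 0.00613% in Gly_AC and 0.00706% in MG, and 0.0% in the other 7 labels. DESeq2 also called 0 members in each label, although over the 11 labels together it passed many more genes than edgeR, as given below under processing. At an unadjusted p under 0.05, edgeR passed *Atad2* in CBC (log2 difference 1.47 ± 0.59 SE, edgeR p = 0.0297) and *Ccne2*, the cyclin that opens S phase, in MG (edgeR p = 0.0331), and no other member in any label. *Ccne2* had 0 UMIs in control MG and 39 in CKO MG (3.04 CPM), at least 1.53-fold above the floor of 3 counts in the control (1.99 CPM), and its fitted log2 difference of 5.14 ± 2.15 SE depends on the prior count. In Gly_AC *Dtl* and *Mcm5* were also at 0 in the control, and with these 3 genes at their bounds the medians of MG and Gly_AC did not change. Median log2 differences of the members lay between -0.24 in astrocytes and 0.22 in HC when immune nuclei are set aside, with 0.07 in rods, where 20 of 33 were positive, and -0.04 in MG, where 9 of 20 were positive. The 2 members at an unadjusted p under 0.05 stand beside shares of all genes of 3.07% in CBC and 6.16% in MG. In the other labels that share was 6.08% in astrocytes, 3.05% in cones, 1.33% in GABA_AC, 3.78% in Gly_AC and 3.14% in HC, and it was 3.85% in immune nuclei, 3.34% in RBC, 1.52% in RGC and 2.79% in rods.

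MG had little of the S phase program in either genotype. By role, licensing genes were at 13.8 CPM in CKO and 13.2 CPM in control MG, close to rods at 13.3 and 11.2 CPM, and checkpoint genes at 69.5 and 82.1 CPM. Of 20 members with enough counts, *Atad2* was at least 2 times higher in MG than in neurons and *Ccne2* at most 0.5 times as high, where 14.2% and 11.9% of all genes passed these limits. The 70 CKO MG nuclei with at least 2 mitotic UMIs held the list at 508 CPM against 431 CPM in the others, and 7 such control nuclei held it at 708 CPM against 407 CPM. EC markers in MG summed to 1331 CPM in the CKO (8 of 8 detected) and 1290 CPM in the control retina (5 of 8, with *Cldn5*, *Cdh5* and *Abcb1a* at 0), led by *Flt1*. Their part in these levels was not tested. In retinal astrocytes 3 of 23 members (*Atad2*, *Mcm2*, *Pcna*) were at least 2 times above neurons, beside 23.9% of all genes, and *Ccne2* was at most 0.5 times as high, beside 15.3%. In that label 8 CKO nuclei with mitotic UMIs held the list at 1096 CPM against 469 CPM in the rest.

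In the control brain, the list was highest in nuclei labeled microglia (863 CPM), ECs (739 CPM), OPCs (718 CPM) and vascular smooth muscle cells (vSMCs, 595 CPM), and the intervals of the first 3 overlap. With 1 library per genotype no test was possible, and ratios are given by size with exact conditional binomial intervals. The ratio of CKO over control was above 1 in 8 of 21 labels and below 1 in 13. Its interval lay above 1 in 4 labels, namely ECs, vSMCs, the neuron label Glut_5 and microglia, whose ratio of 1.90 turned to 0.858 (0.516 to 1.38) with TMM scaling, and it lay below 1 in 7. With TMM scaling 5 of 21 ratios were above 1, with an interval above 1 in 3, and 16 were below 1, with an interval below 1 in 9. ECs, which carry the deletion, serve here as the reference type. Their list was at 739 CPM in control and 1200 CPM in CKO nuclei, a ratio of 1.62 (1.57 to 1.69), with 19 of 38 members at least 2 times higher and 0 at most 0.5 times as high, beside 11.2% and 5.79% of all genes.

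**Figure D2:**
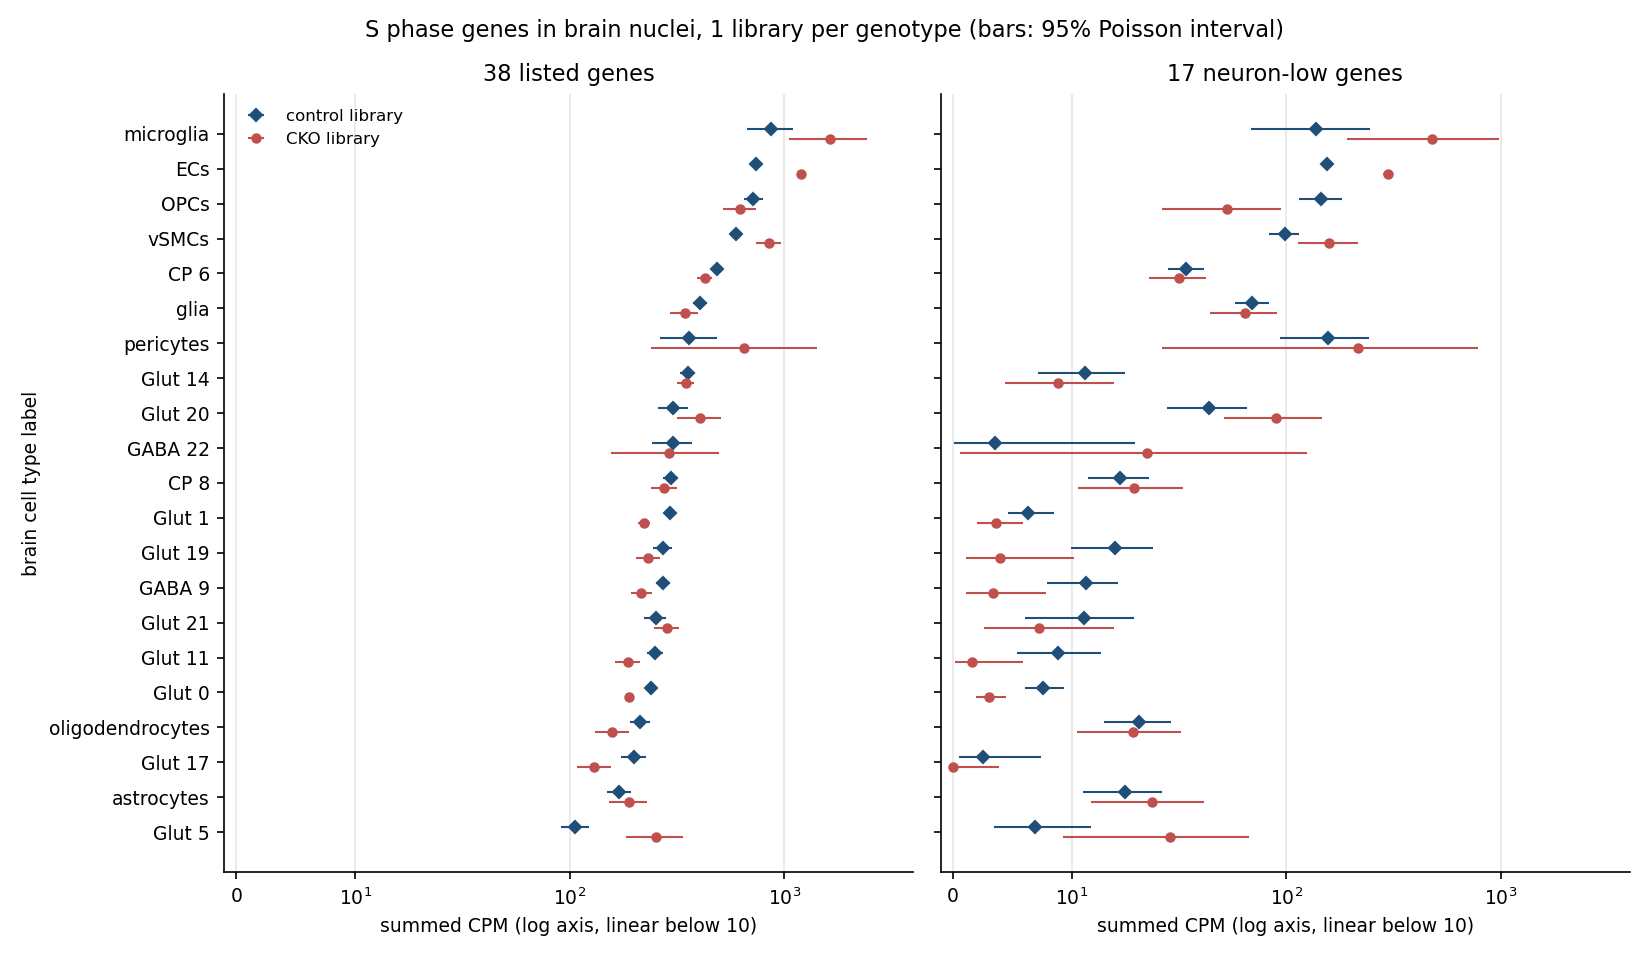
Summed CPM of the 38 listed genes (left) and of the 17 neuron-low genes (right) in each brain cell type label, control (diamonds) and CKO (circles), 1 library each, with 95% Poisson intervals, on an axis that is logarithmic above 10. In OPCs the intervals of the whole list overlap between genotypes (718 and 622 CPM) and those of the neuron-low genes do not (146 and 52.7 CPM).

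OPCs of both brain libraries included nuclei with mitotic transcripts, and those of the CKO brain held the neuron-low members at a lower level. The control library had 400 OPC nuclei with 520679 UMIs and a median of 986 UMIs, and the CKO library 208 nuclei with 208842 UMIs and a median of 616.5. The whole list had 374 UMIs, or 718 CPM (647 to 795), in control OPCs and 130 UMIs, or 622 CPM (520.1 to 739), in CKO OPCs. The ratio was 0.867 (0.704 to 1.06), an interval that contains 1, and 0.680 (0.553 to 0.832) with TMM scaling, an interval that does not. The neuron-low members had 76 UMIs, or 146 CPM, and 11 UMIs, or 52.7 CPM, a ratio of 0.361 (0.173 to 0.683). The other 21 members were at 572 and 570 CPM, a ratio of 0.996 (0.798 to 1.24), or 0.781 (0.626 to 0.969) with TMM scaling. The neuron-low sum was thus lower in CKO OPCs under both scalings, whereas the sum of the other members was level by CPM and lower with TMM scaling. A lower neuron-low sum was not particular to OPCs. In the same 2 libraries the neuron-low ratio was below 1 in 8 of 10 neuron labels, with an interval below 1 in 4, namely Glut_0 (0.398, 0.245 to 0.627), GABA_9 (0.289, 0.0879 to 0.747), Glut_11 (0.183, 0.0208 to 0.755) and Glut_19 (0.252, 0.0632 to 0.743), on 2 to 25 CKO UMIs each, and TMM scaling left these counts of 8 and 4 as they were. In Glut_5 it was above 1 (4.14, 1.13 to 12.9, and 2.70, 0.735 to 8.42, with TMM scaling).

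By role, the licensing and helicase genes were at 38.4 CPM in control and 4.79 CPM in CKO OPCs, the latter from 1 UMI. Nucleotide supply was at 51.9 and 4.79 CPM, again from 1 UMI in the CKO library. Cycle control genes were at 44.2 and 28.7 CPM and checkpoint and repair genes at 152 and 134 CPM. Polymerases and loaders, at 223 and 235 CPM, and chromatin genes, at 209 and 216 CPM, were level between the genotypes by CPM.

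The licensing level in control OPCs came from *Mcm6* and *Cdc45*, which both belong to the replicative helicase. *Mcm6* had 13 UMIs, or 25.0 CPM (13.3 to 42.7), in 12 control nuclei and 0 in CKO OPCs, with a ratio interval of 0 to 0.818. *Cdc45* had 7 UMIs and 1 UMI (ratio 0.356, 0.00790 to 2.77). For nucleotide supply, *Tyms*, which makes thymidylate, had 13 UMIs in control OPCs, or 25.0 CPM, and 0 in CKO OPCs, and *Rrm1*, the large subunit of ribonucleotide reductase, had 13 UMIs and 1 UMI, or 25.0 and 4.79 CPM (ratio 0.192, 0.00451 to 1.28).

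Among chromatin genes, *Hells*, a helicase that helps to keep DNA methylated through replication, was at 36.5 CPM in control and 4.79 CPM in CKO OPCs, on 19 UMIs and 1 UMI (ratio 0.131, 0.00316 to 0.825). *Nasp* was at 71.1 CPM on 37 UMIs and 134 CPM on 28 UMIs, a ratio of 1.89 (1.11 to 3.17), the one member with an interval above 1, and 1.48 (0.872 to 2.49) with TMM scaling. *Atad2* was at 44.2 and 38.3 CPM (ratio 0.867, 0.335 to 2.01) and *Casp8ap2* at 30.7 and 19.2 CPM (0.623, 0.152 to 1.93). *Hells* and *Nasp*, both chromatin genes, thus lay on opposite sides of 1, and their role as a whole was level by CPM.

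Among polymerases, *Pola1* was at 184 CPM on 96 UMIs and 187 CPM on 39 UMIs, a ratio of 1.01 (0.680 to 1.48), or 0.795 (0.533 to 1.16) with TMM scaling, and *Prim1*, its primase partner, had 14 and 3 UMIs (ratio 0.534, 0.0984 to 1.91). The brain libraries also differ in sex, with *Xist* at 1963 CPM in the control and 1.29 CPM in the CKO library, so sex and genotype cannot be told apart for it. Over all nuclei it was at 65.8 and 64.2 CPM.

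Among checkpoint and repair genes, *Clspn*, the adaptor that activates CHK1 at stalled forks, was at 30.7 and 9.58 CPM on 16 and 2 UMIs (ratio 0.312, 0.0348 to 1.33). *Blm* was at 49.9 and 43.1 CPM (0.863, 0.356 to 1.90). *Wdr76* was at 26.9 and 57.5 CPM on 14 and 12 UMIs, a ratio of 2.14 (0.903 to 4.98). *Dtl*, the substrate receptor that clears the licensing factor CDT1 once S phase starts, had 14 UMIs and 1 UMI (ratio 0.178, 0.00421 to 1.17), and *E2f8* 9 and 5 UMIs (1.38, 0.365 to 4.6). *E2f8* and *Dtl*, both of cycle control, thus had ratios on either side of 1, each with an interval that contains 1, although with TMM scaling that of *Dtl* (0.1397, 0.00330 to 0.918) did not.

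**Figure D3:**
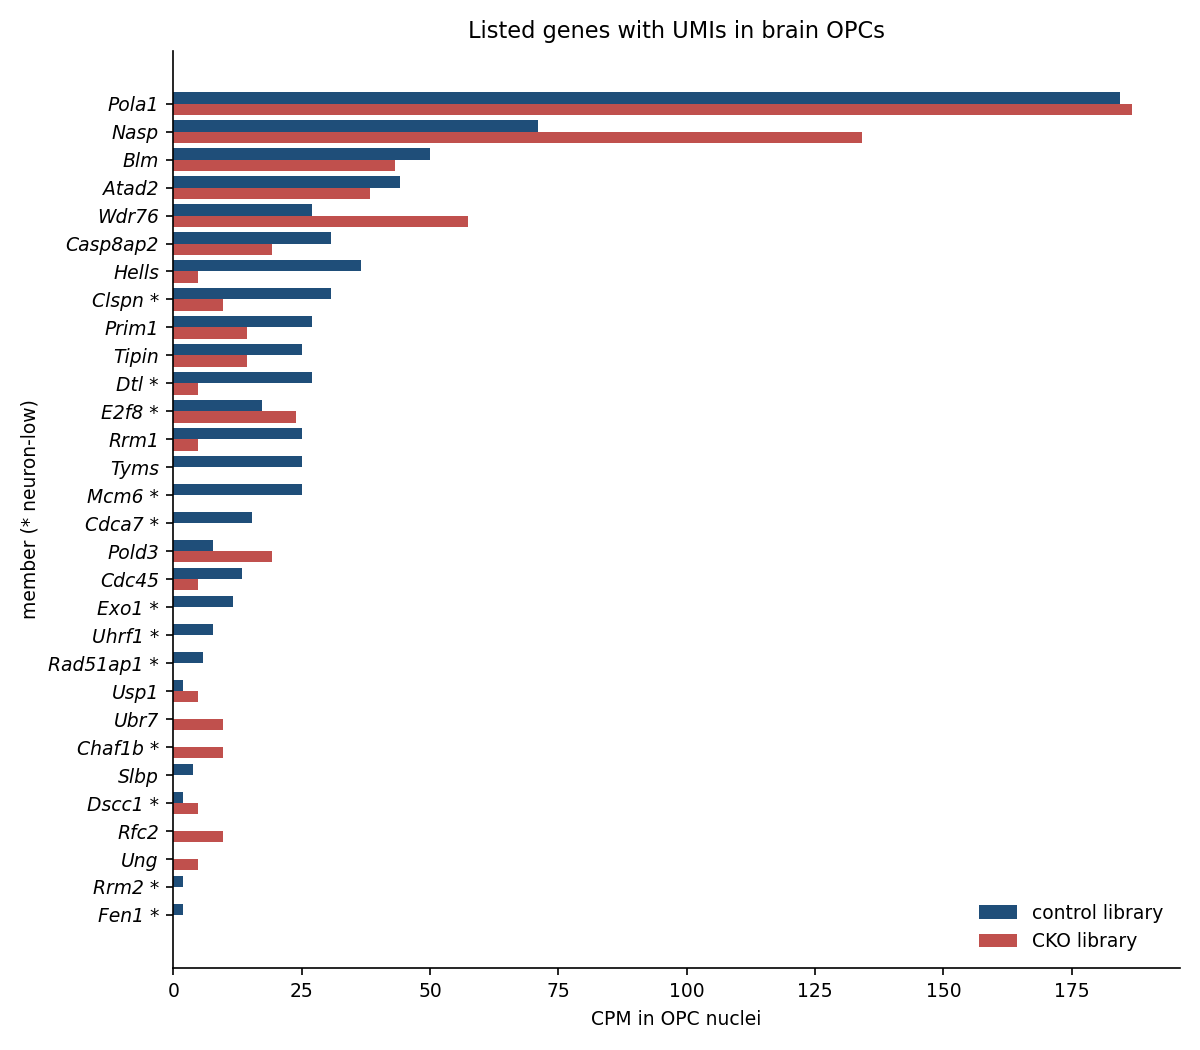
CPM of the 30 listed genes with at least 1 UMI in brain OPC nuclei, control and CKO, 1 library each, ordered by UMIs over both libraries; an asterisk marks neuron-low members. *Pola1* is at 184 and 187 CPM, and *Mcm6* and *Tyms*, at 25.0 CPM in the control, have no UMI in the CKO library.

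Counted over members, 19 were lower in CKO OPCs, 11 were higher and 8 had 0 UMIs in both libraries. Of 15 members with at least 10 UMIs, 11 were lower and 4 higher. Their ratio interval lay below 1 for 3 (*Mcm6*, *Tyms*, *Hells*) and above 1 for *Nasp*, and with TMM scaling it also lay below 1 for *Dtl* and contained 1 for *Nasp*. Among the 7 members with at least 20 UMIs, *Wdr76* was at least 2 times higher and *Hells* at most 0.5 times as high, and of 3748 genes with that many UMIs 14.2% and 14.3% passed these limits. With 7 members tested, the count of 1 in each direction is at that background. With a limit of 10 UMIs, 1 of 15 members was at least 2 times higher, beside 18.9% of 5541 genes, and 6 of 15 (*Clspn*, *Dtl*, *Hells*, *Mcm6*, *Rrm1*, *Tyms*) at most 0.5 times as high, beside 17% of them. TMM scaling moved OPC log2 ratios by 0.35 and brought the median of all genes, with 0.5 added to each count, from 0.10 to -0.25. The other genes of the replication machinery, 39 genes that are not members, summed to 528 and 225 CPM, a ratio of 0.426 (0.306 to 0.582). Of 3 with at least 20 UMIs, 0 were at least 2 times higher and 3 (*Orc2*, *Prim2*, *Wdhd1*) at most 0.5 times as high. The mitotic list was at 701 and 278 CPM, a ratio of 0.396 (0.295 to 0.524), with *Mki67* at 26 and 0 UMIs, *Top2a* at 78 and 21 and *Cenpf* at 35 and 2. A lower mitotic sum was not particular to OPCs. Its ratio in neuron labels was 0.0509 (0.0163 to 0.121) in Glut_1, 0.206 (0.0994 to 0.384) in GABA_9 and 0.439 (0.271 to 0.690) in Glut_0. In Glut_5 and GABA_22 it was above 1, at 15.2 (2.96 to 97.8) and 1.26 (0.0267 to 11.3). Of the CDK inhibitors, *Cdkn1b* (p27) had 7 and 0 UMIs in OPCs, and *Cdkn1a* and *Cdkn1c* had 0 in both.

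The S phase transcripts of OPCs were densest in nuclei with mitotic transcripts. Most UMIs of the whole list lay in other nuclei, with 204 of 374 in the control and 99 of 130 in the CKO library. Of the neuron-low UMIs, 46 of 76 in the control and 3 of 11 in the CKO library lay in nuclei with mitotic transcripts. At least 2 mitotic UMIs were found in 38 of 400 control OPCs (9.50%) and 17 of 208 CKO OPCs (8.17%). In the control, the list was at 2342 CPM in these nuclei and 455 CPM in the others, and the neuron-low members at 634 and 67.0 CPM. In the CKO library, the list was at 1165 and 543 CPM and the neuron-low members at 113 and 43.9 CPM. The shares of mitotic nuclei are not at equal depth, and their difference was not tested. The S phase level within those nuclei was lower in the CKO library, on 31 UMIs. In the nuclei with fewer than 2 mitotic UMIs the ratio of the list was 1.19 (0.929 to 1.52), and that of the neuron-low members was 0.656 (0.260 to 1.46), an interval that contains 1. Over all OPC nuclei, the neuron-low ratio was 0.298 (0.0927 to 0.741) among nuclei with at least 1000 UMIs, 0.283 (0.136 to 0.536) with TMM scaling and 0.419 (0.173 to 0.880) among nuclei with a UMI of *Pdgfra* or *Cspg4*. The part of depth and of mitotic nuclei in the lower neuron-low level, which rests on 11 CKO UMIs, was not tested. Any member was found in 161 control nuclei (40.3%) and 67 CKO nuclei (32.2%). In the control, 18 nuclei with at least 5 UMIs of members carried 37.4% of all list UMIs, and 15 of the 18 also had at least 2 mitotic UMIs. In the CKO library 6 such nuclei carried 28.5%, and 3 of the 6 also had at least 2 mitotic UMIs.

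At 500 UMIs per nucleus, 6.50% of 354 control OPCs (4.16 to 9.59, exact binomial) and 8.63% of 139 CKO OPCs (4.54 to 14.6) had at least 2 different members, and unthinned 17.8% and 12%. The 10 neuron labels lay between 0% and 1.19% in the control and between 0% and 1.07% in the CKO library, at median depths per label of 713 to 6480 and 502 to 2750 UMIs. At least 1 neuron-low member was found in 5.65% of control and 3.60% of CKO OPCs. The share with at least 2 mitotic UMIs was 6.21% (3.94 to 9.26) and 4.32% (1.60 to 9.16) at that depth. OPCs of both genotypes were thus above the neurons for the list, and the 2 genotypes overlapped. Against the neuron labels, 20 of 25 members with a mean of at least 2 CPM over the 2 groups were at least 2 times higher in control OPCs, beside 23.4% of all genes, with a median log2 ratio (1 CPM added) of 1.68 over members and -0.52 over all genes. In CKO OPCs the count was 15 of 23, beside 31.5%. That filter left out 13 members for the control, 9 of them at 0 UMIs in control OPCs, and 15 for the CKO library, all at 0 UMIs in CKO OPCs, and members close to 0 in neurons entered through their OPC level. With the filter on the neuron level alone the counts were 13 of 18 and 6 of 15, beside 13.4% and 16.8% of genes, and over genes with any UMI they were 24 of 38 and 15 of 31, beside 16.4% and 16.2%. At most 0.5 times the neuron level were 4 of 25 and 3 of 23 at a mean of at least 2 CPM, beside 41.2% and 33.6%, and 13 of 38 and 11 of 31 with any UMI, beside 65.7% and 65.9%.

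OPC nuclei carried their defining markers in both genotypes. All 8 OPC markers were detected, summing to 10320 CPM for the control and 8284 CPM for the CKO library, led by *Tnr* at 6532 and 5310 CPM. Neuron markers summed to 1198 and 2389 CPM (3 of 3), and astrocyte markers to 150 and 479 CPM, led by *Slc1a2*. EC markers were at 74.9 CPM with 6 of 8 detected and 14.4 CPM with 3 of 8, *Pecam1* and *Kdr* being at 0 in both, while ECs themselves were at 11790 and 9941 CPM. Markers of neurons and astrocytes were thus higher in CKO OPCs, and their part in the lower neuron-low level was not tested. When OPC nuclei were required to have a UMI of *Pdgfra* or *Cspg4*, the list was at 781 CPM in the control and 772 CPM in the CKO library.

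The brain label microglia was the other immune label. In the control, 129 nuclei with a median of 402 UMIs gave 69 UMIs of the list, or 863 CPM (672 to 1093), and 11 CKO nuclei gave 24 UMIs, or 1640 CPM (1051 to 2440), a ratio of 1.90 (1.14 to 3.06) that TMM scaling turned to 0.858 (0.516 to 1.38). *Pola1* was at 188 and 342 CPM on 15 and 5 UMIs (ratio 1.82, 0.518 to 5.27, and 0.822, 0.234 to 2.38, with TMM scaling), *Atad2* at 138 and 205 CPM on 11 and 3, and *Wdr76* at 113 and 68.3 CPM on 9 UMIs and 1 UMI. *Clspn* had 1 control UMI and 4 CKO UMIs, the latter from 2 nuclei (ratio by CPM 21.8, 2.16 to 1076). Its ratio with TMM scaling was not computed, and that scaling took the ratios of the list and of *Pola1* below 1. *Pola1* alone had enough UMIs for the limit of 20 and was not past it, where 19.0% of genes were at least 2 times higher and 52.1% at most 0.5 times as high. TMM scaling moved microglial log2 ratios by 1.15. The 10 control nuclei with at least 2 mitotic UMIs held the list at 2908 CPM, the other 119 at 537 CPM, and 2 of 11 CKO nuclei were mitotic. The 11 CKO nuclei held few transcripts of their own label. Immune markers summed to 752 CPM with *Tyrobp* and *Fcer1g* at 0, microglial markers to 752 CPM with 4 of 8 detected, OPC markers to 2528 CPM and neuron markers to 2596 CPM, whereas control microglia had 4679, 3491, 763 and 601 CPM. Control nuclei also held other myeloid markers at 10690 CPM, led by *F13a1* at 5906 CPM, above the microglial markers, so the name of the label does not cover all that it holds. The part of the OPC and neuron transcripts in the CKO level was not tested.

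Mural and fibroblast-like nuclei of the vessel fragments held the list at intermediate levels. In vSMCs it was at 595 CPM in 449 control nuclei and 848 CPM in 103 CKO nuclei, a ratio of 1.42 (1.22 to 1.65), and the neuron-low members were at 98.3 and 159 CPM (1.61, 1.11 to 2.29). With TMM scaling these ratios were 1.26 (1.08 to 1.46) and 1.43 (0.989 to 2.03), so the interval of the neuron-low members then contains 1. Of 20 members, 3 (*Mcm2*, *Mcm4*, *Nasp*) were at least 2 times higher and 0 at most 0.5 times as high, where 4.7% and 8.82% of genes passed. With TMM scaling 1 of 20 was (*Mcm4*). EC markers in vSMCs summed to 4837 and 5148 CPM (8 of 8), led by *Flt1*, against 4307 and 3828 CPM for the 3 vSMC markers, led by *Acta2*. Pericyte markers were at 5792 and 5582 CPM. EC transcripts were thus as abundant as those of the label itself, and their part in the vSMC ratio, which points the same way as that of ECs, was not tested. Pericytes were at 361 CPM on 44 UMIs and 651 CPM on 6 UMIs, a ratio of 1.80 (0.628 to 4.25) that TMM scaling turned to 0.658, and no member reached 20 UMIs there, where 13.7% and 40.5% of genes passed the limits. Nuclei labeled glia, in which fibroblast markers led by *Col1a2* summed to 3413 and 3762 CPM, were at 404 and 343 CPM (0.848, 0.713 to 1.00, and 0.730, 0.614 to 0.865, with TMM scaling). Of 14 members in glia, 2 (*Ubr7*, *Wdr76*) were past the upper and 4 (*Atad2*, *Blm*, *Mcm6*, *Nasp*) past the lower limit, where 10.2% and 11.1% of genes passed. EC markers were at 1251 and 922 CPM there.

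Astrocytes and oligodendrocytes were near or below the neurons. Astrocytes were at 170.3 and 188 CPM (ratio 1.10, 0.860 to 1.41, and 0.936 with TMM scaling). In the control, 5 astrocyte nuclei with mitotic UMIs held the list at 4104 CPM and the other 937 at 141 CPM, so that 41 of 232 list UMIs came from 5 nuclei. *Casp8ap2* was past the upper limit of 4 members tested, beside 8.81% of genes, and 0 were past the lower one, beside 15.3%. Oligodendrocytes were at 212 and 158 CPM (0.744, 0.597 to 0.923, and 0.826, 0.662 to 1.03, with TMM scaling), with *Casp8ap2* past the lower limit of 5 members tested, beside 29.6% of genes, and 0 past the upper, beside 3.77%. They also had 72 control and 30 CKO nuclei with at least 2 mitotic UMIs, but *Anln*, which myelinating cells express, gave 223 of the 245 control and 143 of the 148 CKO mitotic UMIs of the label. The neuron-low members were at 4.15 CPM in the control and 19.1 CPM in the CKO nuclei so marked, on 1 UMI each. The label CP_6 was at 486 and 426 CPM (0.876, 0.796 to 0.964), with 0 of 20 members past the upper and 3 (*Clspn*, *Mcm6*, *Tipin*) past the lower limit, beside 3.82% and 5.42% of genes. CP_8 was at 295 and 275 CPM (0.934, 0.793 to 1.10), with *Tipin* and *Atad2* past the upper and the lower limit among 12, beside 5.58% and 9.09%.

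In brain neurons the list was lower in the CKO library in 8 of 10 labels, with an interval below 1 in 5, or in 6 with TMM scaling. In Glut_0, the label with the most UMIs, it was at 238 and 189 CPM (0.793, 0.745 to 0.844), and in Glut_1 at 294 and 221 CPM (0.751, 0.695 to 0.811). Glut_5 went the other way, at 106 and 251.5 CPM (2.37, 1.66 to 3.32), on 169 and 44 UMIs at median depths of 713 and 502, and TMM scaling moved its log2 ratios by 0.62 and its list ratio to 1.55 (1.08 to 2.16). The neuron-low members were at 7.57 and 3.02 CPM in Glut_0. Their ratio was under that of the shared members in 8 of the 10 neuron labels, such as 0.398 against 0.806 in Glut_0, and over it in Glut_5 (4.14 against 2.25) and GABA_22 (6.31 against 0.901, on 1 neuron-low UMI per library). Counted by member, the lower limit was passed by 6 of 16 in Glut_0 (10.6% of genes), 1 of 16 in Glut_1 (11.9%), 4 of 10 in Glut_11 (12.2%), 1 of 4 in Glut_17 (11.5%) and 2 of 11 in GABA_9 (5.78%). It was passed by 2 of 10 in Glut_14 (5.91%), 1 of 11 in Glut_19 (4.44%), 1 of 10 in Glut_21 (4.38%), 0 of 3 in Glut_5 (17.8%) and 0 of 2 in GABA_22 (32.6%). The upper limit was passed by 3 of 10 in Glut_21 (5.45%), 2 of 3 in Glut_5 (18.8%) and 1 of 10 in Glut_11 (3.50%). In the other 7 neuron labels 0 members passed it, beside 3.27% of genes in Glut_0, 2.28% in Glut_1, 3.52% in Glut_14, 1.82% in Glut_17, 3.42% in Glut_19, 3.66% in GABA_9 and 9.38% in GABA_22. Glut_20 held 55.5% and 56.9% of its UMIs on genes shorter than 30 kb, against 8.20% to 20.2% in the 10 neuron labels, and was set apart from them. It was at 304 and 405 CPM (1.33, 0.995 to 1.77), with 1 of 3 members past each limit, beside 8.67% and 13.5% of genes.

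Against the neuron labels of their own library, the other cell types were counted at a mean of at least 2 CPM over the 2 groups. At least 2 times higher were 24 of 32 members in control ECs (46.1% of genes) and 33 of 36 in CKO ECs (49.9%), 17 of 25 in control microglia (31.4%) and 13 of 18 in CKO microglia (28.6%). In vSMCs it was 18 of 28 (45.8%) and 26 of 30 (52.7%), in glia 18 of 31 (45.5%) and 15 of 23 (50.3%), and in pericytes 16 of 27 (33.4%) and 4 of 13 (19.6%). Astrocytes had 2 of 18 (26.8%) and 7 of 19 (32.6%), and oligodendrocytes 3 of 16 (25.3%) and 4 of 18 (26.0%), shares below or near those of all genes. Members close to 0 in neurons enter these counts through the other type. With the filter on the neuron level alone, the upper limit was passed by 10 of 18 in control ECs (26.3%) and 12 of 15 in CKO ECs (30.2%), and in the same order by 9 of 18 (16.3%) and 9 of 15 (21.2%) in microglia, 7 of 18 (25.8%) and 11 of 15 (30.7%) in vSMCs, 6 of 18 (13.5%) and 3 of 15 (11.8%) in pericytes, and 5 of 18 (25.7%) and 7 of 15 (29.0%) in glia. In astrocytes it was passed by 1 of 18 (14.8%) and 3 of 15 (16.4%), and in oligodendrocytes by 1 of 18 (16.3%) and 1 of 15 (15.8%). At a mean of at least 2 CPM the lower limit was passed as follows. At most 0.5 times as high were 7 of 18 (47.5%) and 6 of 19 (42.0%) in astrocytes and 7 of 16 (44.8%) and 8 of 18 (53.7%) in oligodendrocytes. In ECs that count was 1 of 32 (31.8%) and 0 of 36 (27.8%), in microglia 6 of 25 (50.2%) and 5 of 18 (57.6%), in vSMCs 0 of 28 (22.7%) and 1 of 30 (21.6%), in glia 0 of 31 (25.7%) and 3 of 23 (24.3%), and in pericytes 10 of 27 (55.1%) and 9 of 13 (76.9%).

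The CDK inhibitors, which hold cells out of S phase, were scarce in immune nuclei. In CKO retinal immune nuclei *Cdkn1a* (p21) was at 14.5 CPM, *Cdkn1b* at 31.0 CPM and *Cdkn1c* (p57) at 2.35 CPM, and control immune nuclei had 1 UMI of *Cdkn1b* and 0 of the others. In MG *Cdkn1b* was at 86.1 CPM in the CKO and 62.2 CPM in the control retina (pooled ratio 1.39, 1.12 to 1.73). That interval covers counting error alone and not the spread between CKO libraries. *Cdkn1b* had 4 and 0 UMIs in control and CKO brain nuclei labeled microglia. In ECs *Cdkn1a* was at 247 CPM in the control and 86.3 CPM in the CKO library (ratio 0.349).

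Gene length went with which members were seen in OPCs. OPC nuclei had 10.5% (control) and 11.9% (CKO) of their UMIs on genes shorter than 30 kb, against 39.6% and 37.4% in ECs. The 27 members shorter than 30 kb summed to 250 CPM in OPCs and 628 CPM in ECs, and the 11 longer ones to 441 and 360 CPM. In OPCs 8 members had 0 UMIs, where the floor of 3 counts was 4.11 CPM over both libraries. They were *Mcm2*, *Mcm4*, *Mcm5*, *Gins2*, *Gmnn*, *Cdc6*, *Pcna* and *Ccne2*, and in ECs *Pcna*, *Mcm4*, *Mcm2* and *Gmnn*, the inhibitor of relicensing, were at 65.5, 25.1, 20.7 and 20.2 CPM. Members with 3 or fewer OPC UMIs had a median length of 14.9 kb, and the 20 others 32.6 kb. Across the 38 members, length and the OPC over EC ratio had a Spearman coefficient of 0.57, given as a description since the points share 2 libraries. Whether length accounts for the 0 UMIs of *Pcna* or *Mcm2* in OPCs was not tested. Per kb, *Pola1* (chrX:92348365-92675813 in GRCm39, minus strand, 327 kb) was at 0.565 CPM in OPCs and 0.175 in ECs, *Hells* (chr19:38919359-38960047, plus strand, 40.7 kb) at 0.674 and 1.81, and *Pcna* (chr2:132091082-132095234, minus strand, 4.15 kb) at 0 and 15.8. Retinal immune nuclei and rods did not differ in this way, with 23.3% and 24.4% of control UMIs on genes under 30 kb.

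**Figure D4:**
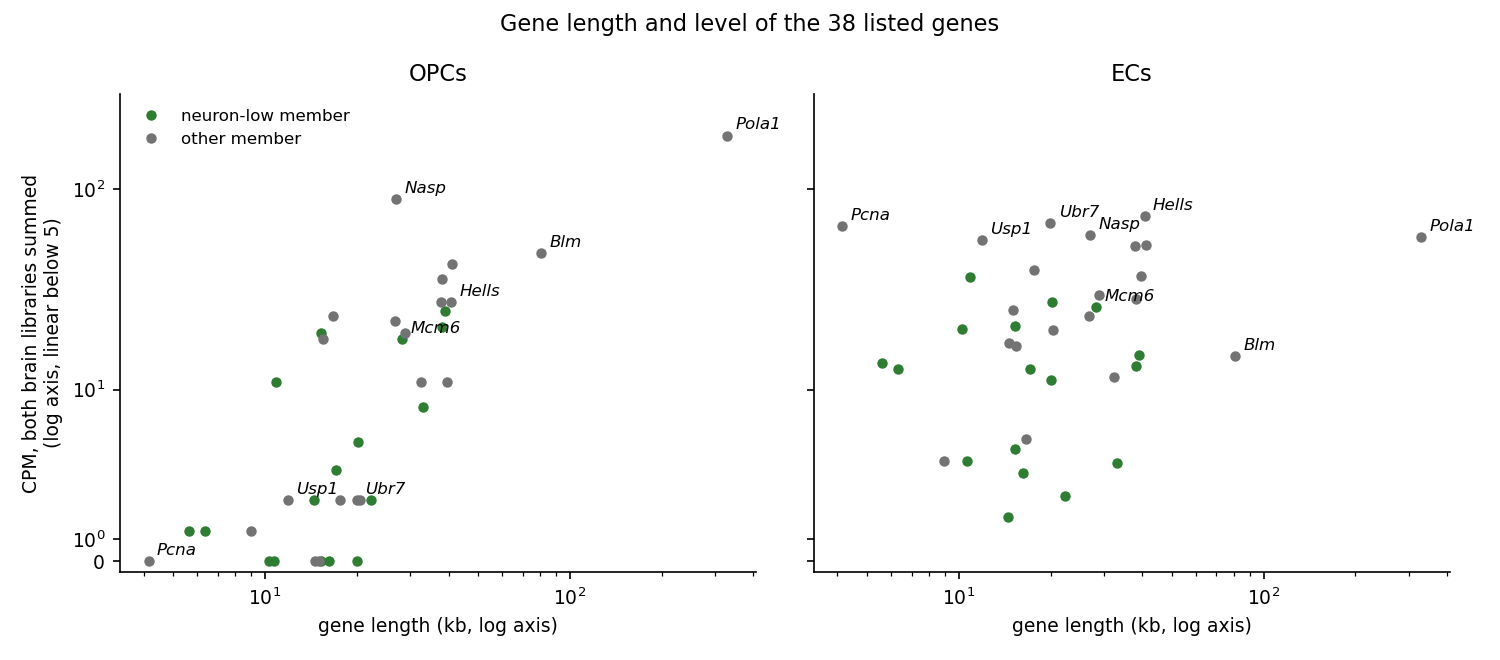
Gene length in kb (log axis) against CPM in OPCs (left) and ECs (right), both brain libraries summed, for the 38 listed genes; green marks neuron-low members. In OPCs *Pcna* (4.15 kb) is at 0 and *Pola1* (327 kb) at 185 CPM, whereas in ECs they are at 65.5 and 57.4 CPM.

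The genes whose level was most like that of the list across labels differed between tissues. Over 36 sums of brain label and library, the 10 genes with the highest Pearson coefficient to the list were *Bub1b* (0.86), *Wbp4*, *Hnrnpul1*, *Kif15*, *Cnot6*, *Calcrl*, *Pum2*, *Cenpf*, *Vangl2* and *Syncrip* (0.81), among 14407 genes. *Bub1b*, *Kif15* and *Cenpf* act in mitosis. For the neuron-low members the highest was *Calcrl* (0.92), a receptor of ECs. Over the 11 retinal labels, *Fkbp5* (0.94) was highest for the list, and *Cdt1* (0.92), the licensing factor, was among the first 10 of 17303 genes. For the neuron-low members *Adgre5* (0.98) was highest, and *Dna2*, *Cd48* and *Csf3r* were among the first 10, *Cd48* and *Csf3r* being leukocyte genes. The points share libraries and depth, and the coefficients are descriptions. Among members, *Rrm1* (0.82) followed the brain list most closely and *Blm* (0.17) and *Pola1* (0.23) least.

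Promoters are shown because the members are known as a group under E2F control. RefSeq promoters of build GRCm38.p6, from 250 bases before to 50 after the start of transcription, were found for 28 of the 38 members. The letters TTTSSCGC, in which S is C or G, read on either strand as E2F sites, occurred in 12 of the 28 (42.9%), against 2.61% of 27025 genes. They occurred in 7 of 13 neuron-low members and 5 of 15 others, so both kinds of member hold them. The CHR letters TTTGAA or TTCGAA, typical of genes that peak in mitosis, occurred in 6 of 28 (21.4%), against 21.7% of all genes. Of the other replication genes, 12 of 34 held the E2F letters and 9 the CHR letters, and of 15 mitotic genes 1 and 11. A match is a description and not a bound site. The promoters below, with the E2F letters of either strand in capitals, are those of *Mcm6* and *Hells*, whose ratio interval in OPCs lay below 1, of *Dtl* and *Clspn*, whose ratios by CPM were low with intervals that contain 1, and of *Pola1*, which was level there by CPM and had UMIs in each retinal neuron label.
*Mcm6*, chr1:128359656-128359955, minus strand: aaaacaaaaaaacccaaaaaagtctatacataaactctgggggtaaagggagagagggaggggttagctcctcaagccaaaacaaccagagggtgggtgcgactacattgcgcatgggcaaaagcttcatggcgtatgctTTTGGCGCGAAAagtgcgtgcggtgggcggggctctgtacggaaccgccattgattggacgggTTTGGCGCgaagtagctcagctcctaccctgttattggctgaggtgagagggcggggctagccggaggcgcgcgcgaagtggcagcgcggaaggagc
*Dtl*, chr1:191575495-191575794, minus strand: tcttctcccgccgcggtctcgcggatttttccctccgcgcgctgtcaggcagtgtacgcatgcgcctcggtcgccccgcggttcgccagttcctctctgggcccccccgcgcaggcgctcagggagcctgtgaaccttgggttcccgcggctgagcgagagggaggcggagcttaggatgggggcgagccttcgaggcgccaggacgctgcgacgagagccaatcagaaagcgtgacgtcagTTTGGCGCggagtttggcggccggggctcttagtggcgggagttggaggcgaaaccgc
*Hells*, chr19:38930740-38931039, plus strand: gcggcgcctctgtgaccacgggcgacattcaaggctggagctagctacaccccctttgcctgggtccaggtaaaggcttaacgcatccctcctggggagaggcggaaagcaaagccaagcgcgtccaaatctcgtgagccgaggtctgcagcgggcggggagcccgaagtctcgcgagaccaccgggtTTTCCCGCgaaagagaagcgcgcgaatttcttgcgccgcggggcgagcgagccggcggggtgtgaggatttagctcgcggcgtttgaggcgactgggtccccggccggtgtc
*Clspn*, chr4:126556730-126557029, plus strand: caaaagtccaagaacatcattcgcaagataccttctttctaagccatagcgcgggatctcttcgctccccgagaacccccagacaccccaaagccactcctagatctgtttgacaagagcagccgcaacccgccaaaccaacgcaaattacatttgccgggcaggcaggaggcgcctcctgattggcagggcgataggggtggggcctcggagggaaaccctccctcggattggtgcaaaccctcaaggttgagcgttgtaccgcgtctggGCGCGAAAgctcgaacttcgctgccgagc
*Pola1*, chrX:93632106-93632405, minus strand: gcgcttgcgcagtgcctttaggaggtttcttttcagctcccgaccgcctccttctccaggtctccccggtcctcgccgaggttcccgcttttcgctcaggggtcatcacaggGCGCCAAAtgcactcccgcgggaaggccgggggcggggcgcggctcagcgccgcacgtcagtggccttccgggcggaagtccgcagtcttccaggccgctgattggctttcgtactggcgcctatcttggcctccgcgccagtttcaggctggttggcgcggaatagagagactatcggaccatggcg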

How the data were processed

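The authors deposited UMI counts per gene and nucleus, made with PIPseeker, cleaned of ambient RNA with CellBender and of doublets with SOLO, and then curated by hand, with mixed nuclei and some clusters of CKO retina replicates 4 and 5 removed. The sample labels name build mm10 and the methods GRCm39, and gene lengths were taken from GRCm39. UMIs were summed per library and label with Python 3.11.15, numpy 2.4.6, scipy 1.17.1 and pandas 2.3.3. Retinal genotypes were compared in R 4.3.3 with edgeR 4.0.16 (quasi-likelihood, TMM, kit version as covariate), in labels with at least 10 nuclei per library and genes with at least 30 UMIs, and with DESeq2 1.42.0. Members, mitotic genes, other replication genes, CDK inhibitors and markers were chosen with earlier results of these data known. Full values are given for the 8 members with the most UMIs in retinal immune nuclei, the 8 in OPCs, and any member past a limit in a retinal fit or in OPCs or microglia. Results were also computed under 18 planned and 7 added alternatives.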

Additional observations from a re-analysis of the deposited data

Results flagged for a closer look

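Of 18 groups of retinal label and list with 4 to 10 CKO libraries, 1 held a library that lay far from the others. In retinal astrocytes of CKO replicate 2, the neuron-low members were at 134.6 CPM, and the nearest of the 8 libraries was at 40.9 CPM. It was picked out because the gap to the nearest library was 0.696 of the range of the group. The value rests on 2 UMIs. Immune nuclei and RGC, with 11 CKO libraries each, were not put to this rule, so CKO replicate 4 of the immune nuclei is not covered by it. With this rule about 1 in 20 groups would be picked out by chance.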

How the results depend on the processing

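Genes that passed in the 11 retinal labels together numbered 4 with edgeR and 1101 with DESeq2. The sum was 22 without a filter on UMIs, 7 with batch as covariate, 7 with no covariate and 41 within batch 1. In immune nuclei 0 genes passed, against 1 without a filter and 3 within batch 1. No member passed in any of these fits.

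The list in CKO immune nuclei was at 802 CPM, at 1222 CPM as the mean of each nucleus's own CPM, and at 635 CPM without *Pola1*. In control immune nuclei the share with at least 2 members was 3.57% at 500 UMIs and 29.4% at the deepest thinning. In CKO immune nuclei it was 8.61% at 500 UMIs, 16.1% at 1000 and 32.1% at the deepest thinning, and 3.15% for at least 3 members. The share in neurons also rose with depth. Over the 8 neuron labels of the CKO retina it ran from 0.442% to 2.69% at 500 UMIs. Unthinned, it ran from 16.5% in rods to 68.1% in RGC. The deeper immune shares are given without neurons at the same depth, so they do not measure an excess over background.

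In control OPCs the list was at 718 CPM, at 534 CPM without *Pola1*, and at 781 CPM in nuclei with *Pdgfra* or *Cspg4*. In CKO OPCs it was at 622 CPM, at 436 CPM without *Pola1*, and at 772 CPM in such nuclei. The share of control OPCs was 6.50% at 500 UMIs, 14.7% at 1000 and 36.1% at the deepest thinning, and 1.98% for at least 3 members. That of CKO OPCs was 8.63%, 25.0% at the deepest thinning and 4.32% for at least 3 members. Unthinned, the 10 brain neuron labels ran from 1.18% to 41.3% in the control and from 1.89% to 21.05% in the CKO library. The deeper OPC shares are likewise given without neurons at the same depth. The OPC ratio of 0.867 was 0.680 with TMM and 1.19 in nuclei with fewer than 2 mitotic UMIs, the one setting that put it above 1. In OPCs 1 member was at least 2 times higher, beside 14.2% of genes, against 0 with at least 50 UMIs (10.4%) and 0 with TMM (6.83%). At most 0.5 times as high was 1 of 7 members (14.3% of genes), against 6 of 15 with at least 10 UMIs (17%), 0 of 2 with at least 50 (10.6%) and 2 of 7 with TMM (21.3%). Members at least 2 times above neurons numbered 20 in control OPCs, 15 in CKO OPCs and 10 in immune nuclei, against 13, 6 and 1 with the filter on neurons alone and 24, 15 and 16 over genes with any UMI. The microglial ratio of the list, 1.90, was 0.858 with TMM. The cause of these shifts was not tested.

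No paired analysis was possible because the labels pair no CKO library with a control. The 7 added alternatives were chosen after the data had been seen.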

Other observations

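The retina has 1 control library and the brain 1 library per genotype, so animal to animal spread in the control is unknown, and the brain ratios cover counting error alone. The control held 29 retinal immune nuclei and the CKO brain 11 nuclei labeled microglia. Sex differs between the brain libraries and among the retina libraries. CKO retina replicate 4 sets the upper end of most immune values. Short members such as *Pcna* had 0 UMIs in OPCs, and the part of gene length in this was not tested. Levels in neurons show that part of the list is transcribed outside S phase, and no library measured DNA synthesis itself.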
